A study of Mus musculus with 21 samples.

Results

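Lung fibroblasts of mice just before birth were set against those of mice 28 days after it. The comparison took the 2 fibroblast libraries of embryonic day 18.5 (E18.5) and the 2 of postnatal day 28 (P28), 4 of the 21 libraries of the series, and ran over the 21170 genes listed in the fibroblast tables. Both groups were C57BL/6 mice carrying a Col1a2-GFP transgene, in which a promoter of a type I collagen gene marks cells with green fluorescent protein, so a cell entered either group only if that reporter was on. Lungs were digested for 60 min at 37 °C with collagenase, Dispase II and DNase I and depleted on magnetic beads. The sorted cells were propidium iodide-, Epcam- and GFP+ and lacked CD31, CD45, Ter119 and CD146, which mark endothelial cells, leukocytes, red cells and vascular mural cells. Poly(A) RNA was amplified and read by 3'SAGE-seq, which counts 1 short tag near the 3' end of a transcript. The other 7 fibroblast libraries, from stages between and after these ages, served only to choose the genes tested and to estimate the spread between replicates. The lone library of postnatal day 56 (P56) has a stage mean of its own and so adds no residual degree of freedom. The labels name no sex, no separate animals and no hour of collection, so p-values measure how these samples vary, and that variation may be technical only.

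Lung fibroblasts make the matrix of the airspace walls and of the sheaths around vessels and airways. In the mouse the elastin-rich septa that divide the airspaces are built mainly in the first weeks after birth, so E18.5 lies before that period and P28 near its end. The cells at the 2 ages share the reporter gate but need not be the same mix of subtypes: adventitial fibroblasts, alveolar lipofibroblasts and contractile myofibroblasts all make type I collagen. In such bulk samples, fewer cells of a type and less RNA per cell cannot be told apart.

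The 4 libraries held 2423876 to 3759066 reads and 14980 to 16447 genes above 0, and the 10 genes with most reads took 17.2 to 20.02% of a library. Values are the authors' normalised tag signal, which sums to 1033860 to 1055930 per library and is not comparable between genes. In what follows, paired values are replicates 1 and 2, the first pair E18.5 and the second P28. Epcam, the gate gene for epithelium, went from 0 and 0 to 0 and 0.399. Pecam1 (CD31) went from 0 and 0 to 0.886 and 1.99 and Ptprc (CD45) from 0 and 0 to 1.77 and 7.18, both too low to be tested. Mcam (CD146) went from 3.09 and 5.12 to 0 and 2.39 and did not pass the test (log2 difference -1.44, SE 0.58, adjusted p = 0.0626), except without P28 replicate 2 (-2.32, adjusted p = 0.0101). Of 12 fibroblast markers, all 12 were found in every library, and their summed value, of which Vim is the largest part, went from 14970 and 16520 to 44120 and 43490. They did not move as one: by the test described below 8 rose, Fn1 and Tcf21 fell, and Pdgfrb and Fbn1 did not pass. The fibroblast transcription factor Tcf21 went from 458 and 589 to 296 and 266 (log2 difference -0.89, SE 0.23, adjusted p = 0.00559). Xist, the RNA that coats the inactive X of female cells, went from 1487 and 1716 to 12.4 and 552 (log2 difference -4.21, SE 0.93, adjusted p = 0.00164). That difference was -1.53 without P28 replicate 1 and -6.90 without P28 replicate 2. The labels name no sex, so the sex of the animals may differ between the ages and between the P28 libraries. In this design a difference in sex cannot be told apart from one of age. The P28 libraries differed in Xist, as they did in the imprinted RNA H19 and in the blood-cell genes Ms4a1, Laptm5, Hba-a1 and Hbb-bs given below. P28 replicate 2 was the higher in each of these, but not in every blood-cell marker: Cd68 stood at 4.43 in P28 replicate 1 and 0.798 in P28 replicate 2.

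A gene was tested if it reached a value of 3 in at least 2 of the 11 fibroblast libraries, and was called at a Benjamini-Hochberg adjusted p under 0.05 in limma on log2(value + 1). Of 11954 genes tested, 4020 were called, 33.6% of them, with 2237 higher at P28 (18.7%) and 1783 lower (14.9%). The median log2 difference, P28 minus E18.5, was 0.01 over all genes tested. Of the genes called, 777 were at least 4-fold higher on this scale and 289 at least 4-fold lower, so the large changes were mostly rises. The 2 values of one age lay wholly above the 2 of the other in 64.8% of all genes tested and in 4014 of the 4020 called, so separate ages mark no gene out. Every log2 difference below is P28 minus E18.5 in log2(value + 1), and for genes with low values this is smaller than the change itself.

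**Figure D1:**
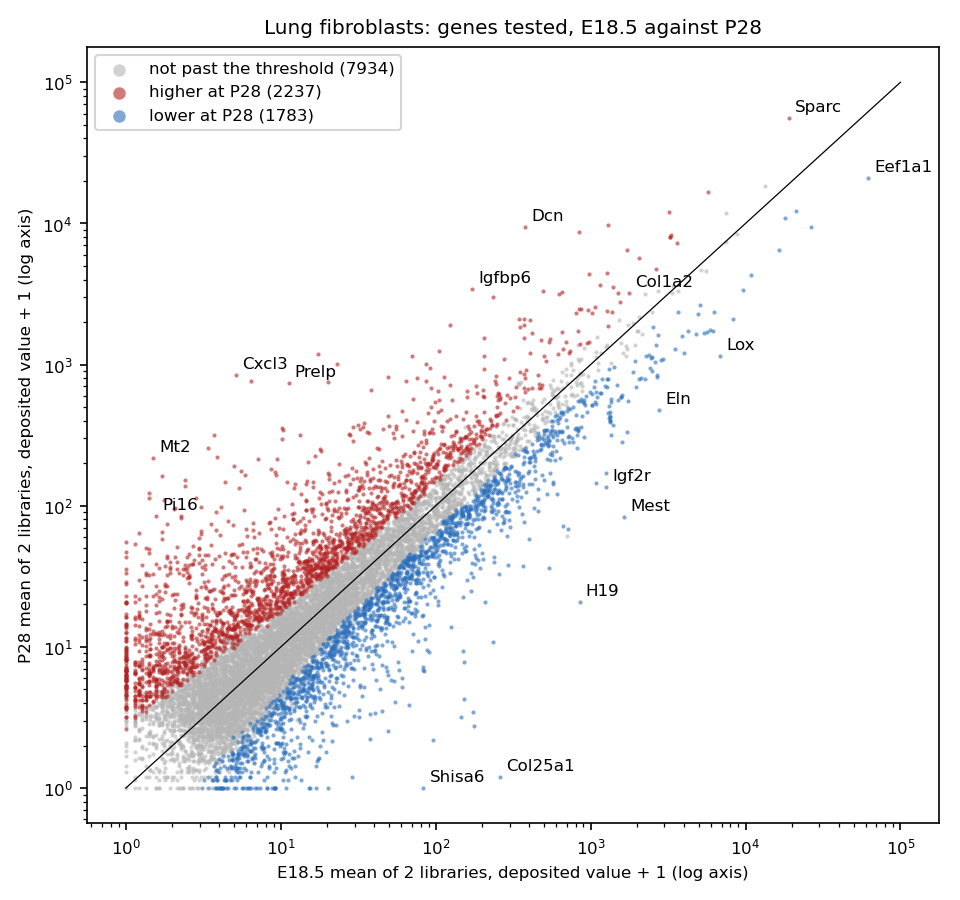
Mean deposited value + 1 at E18.5 (x axis) and P28 (y axis), both log axes without units, each point 1 of the 11954 genes tested and the diagonal marking equal means. The 2237 genes higher at P28 lie above the diagonal and the 1783 lower ones below it; Cxcl3, Mt2 and Prelp lie far above it and Col25a1, Shisa6 and H19 far below.

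The largest rises were led by chemokines. Cxcl3, a ligand that draws neutrophils through the receptor CXCR2, went from 4.49 and 3.84 to 929 and 755 (log2 difference 7.34, SE 0.21, adjusted p = 1.93e-14). Its relative Cxcl2 went from 5.34 and 5.54 to 861 and 680.3 and rose by 6.89 on the log2 scale. Cxcl1 went from 3.65 and 2.13 to 215 and 228 and rose by 5.86. Cxcl10, an interferon-induced ligand of CXCR3, went from 0.562 and 0.853 to 199.6 and 123 (log2 difference 6.53, SE 0.30, adjusted p = 1.1e-11). All 4 genes, chosen as being among the largest rises, had single-digit values in both libraries before birth. The CXCR2 ligands lie close together on mouse chromosome 5 (build mm10): Cxcl3 from 90786103 to 90789600, Cxcl1 from 90891241 to 90893115 and Cxcl2 from 90903871 to 90905938. They are similar paralogs, and reads shared between them could be split by the counting.

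The stretches of 120 bases upstream of these genes and of the cytokine gene Il6 (from 1.12 and 2.99 to 100.1 and 92.9) are shown because all 4 hold the letters of a κB site (GGG, any 2 bases, then TTTCC) on either strand, in capitals. The letters occur within 250 bases upstream of the start in 1.65% of the 27025 genes with a RefSeq promoter entry (GRCm38.p6) and in 4 of the 14 chemokine and cytokine genes listed that rose and have an entry (Csf1, Cxcl1, Cxcl2 and Il6; Cxcl3 is outside that list).
Cxcl3, chr5:90785951-90786070, plus strand: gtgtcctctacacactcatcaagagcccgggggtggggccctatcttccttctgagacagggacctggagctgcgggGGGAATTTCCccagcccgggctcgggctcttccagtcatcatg
Cxcl2, chr5:90903749-90903868, plus strand: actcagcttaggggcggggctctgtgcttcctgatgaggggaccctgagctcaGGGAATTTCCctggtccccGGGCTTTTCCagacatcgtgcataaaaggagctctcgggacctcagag
Cxcl1, chr5:90891095-90891214, plus strand: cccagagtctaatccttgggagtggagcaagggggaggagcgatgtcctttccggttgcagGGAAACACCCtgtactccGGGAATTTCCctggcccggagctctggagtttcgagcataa
Il6, chr5:30012964-30013083, plus strand: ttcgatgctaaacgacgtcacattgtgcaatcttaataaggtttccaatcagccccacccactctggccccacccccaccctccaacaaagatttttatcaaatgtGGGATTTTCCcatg
Cxcl2 and Cxcl1 hold the letters 2 times, starting 97 and 78 bases and 89 and 71 bases before the start site in RefSeq. All such distances are measured to that site, which for Cxcl2 and Cxcl1 lies inside the gene as GENCODE gives it above. Cxcl3 holds the letters once, starting 73 bases before the start site, and Il6 once, 44 bases before it. None of the 4 members of the list that were tested, did not pass and have an entry holds them. The motif was chosen with the rises known, and a match describes letters only, not a bound site.

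Enzymes and secreted proteins that handle metals, oxidants and retinoids followed. Mt2, a metallothionein that binds zinc and copper, went from 0.562 and 0.427 to 263 and 170.3. Its 3 reads at E18.5 against 1318 at P28 gave a ratio of 440.1-fold (95% exact counting interval 150.3 to 2137). Sod3, the superoxide dismutase of the extracellular space, went from 2.81 and 2.56 to 346 and 289.9 (log2 difference 6.43, SE 0.26, adjusted p = 2.41e-12). Aldh1a1, which makes retinoic acid from retinal, went from 0.281 and 2.56 to 149 and 127, and its close homolog Aldh1a7 from 1.12 and 0.427 to 127 and 92.5. Aldh1a1 rose by 6.02, and by 5.28 without E18.5 replicate 1 or 6.76 without E18.5 replicate 2. These 4 genes too had single-digit values at E18.5.

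Proteins of the mature matrix and of adventitial cells made up the rest of the largest rises. Prelp, a leucine-rich repeat proteoglycan that anchors basement membranes (mm10, chromosome 1, 133910304 to 133921414), went from 11.5 and 8.96 to 782 and 701 (log2 difference 6.05, SE 0.26, adjusted p = 4.02e-12). Mamdc2, a secreted proteoglycan, went from 12.6 and 20.05 to 1207 and 1175 (log2 difference 6.14, SE 0.22, adjusted p = 2.92e-13). Crispld2, a secreted glycoprotein that binds lipopolysaccharide, went from 1.97 and 0.853 to 181 and 121, and Pi16, a marker of adventitial fibroblasts, from 1.12 and 0 to 77.1 and 90.1. Both were near the limit of detection before birth and rose by 5.99 and 5.86.

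Several of the largest falls ended near 0. Col25a1, a collagen with a transmembrane segment (mm10, chromosome 3, 130131501 to 130599877), went from 271 and 246 to 0 and 0.399. It had 1543 reads at E18.5 and 1 at P28, a ratio of 1540.0-fold (95% exact counting interval 276 to 60880.0). Shisa6, a regulator of AMPA-type glutamate receptors in neurons, went from 92.7 and 72.1 to 0 and 0, at least 166-fold lower against a floor of 3 reads over the P28 group. Frrs1l, also known from AMPA receptor assembly, went from 149.7 and 141 to 2.36 and 1.99 (log2 difference -5.53, SE 0.34, adjusted p = 6.61e-10). Camk1g, a calcium-dependent kinase, went from 156 and 149 to 5.32 and 1.2 with a log2 difference of -5.36, -6.13 without P28 replicate 1 and -4.60 without P28 replicate 2. These 4 genes, best known from nerve cells, were clearly present in both E18.5 libraries and at most 5.32 in any P28 library.

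Genes of fetal growth were also among the largest falls. The imprinted RNA H19 (mm10, chromosome 7, 142575529 to 142578143) went from 986 and 709 to 0.591 and 39.1 (log2 difference -6.71, SE 0.80, adjusted p = 2.88e-06). The difference was -4.38 without P28 replicate 1 and -9.04 without P28 replicate 2, replicate 2 having a value of 39.1. Igf2bp3, a fetal RNA-binding protein that acts on Igf2 mRNA, went from 86.2 and 105 to 0 and 2.39, with a log2 difference of -5.71. Without P28 replicate 1 it was -4.82, and without P28 replicate 2 -6.59. Mest, a paternally expressed growth gene, went from 1408 and 1883 to 65.9 and 97.7 (log2 difference -4.33, SE 0.22, adjusted p = 4.64e-11).

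The other 5 of the 12 largest falls were enzymes and surface proteins. The protease gene Adamdec1 went from 203 and 142 to 2.95 and 1.99 and Adam12 from 135 and 169 to 7.97 and 5.58. Aspg, an asparaginase, went from 221 and 131 to 1.48 and 1.99, and Cldn10, a tight junction claudin, from 237 and 229 to 8.86 and 10.8. Agt, the precursor of angiotensin, went from 60.7 and 72.5 to 5.32 and 0.399. Their log2 differences were -5.63, -4.31, -5.97, -4.44 and -4.50, the last -5.59 without P28 replicate 1 and -3.41 without P28 replicate 2.

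**Figure D2:**
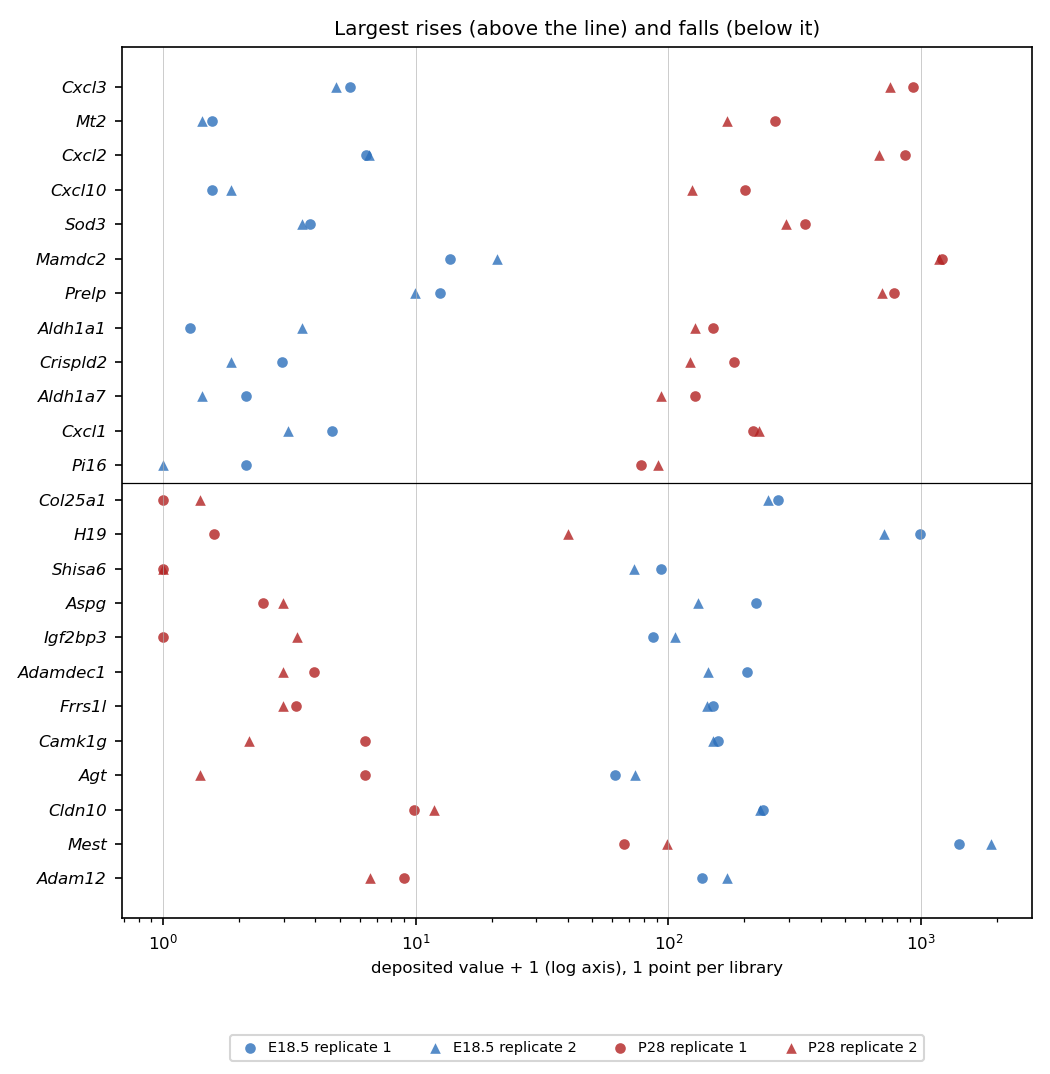
Deposited value + 1 (log axis) in each of the 4 libraries for the 12 largest rises (above the line) and the 12 largest falls (below it) among called genes with a group mean of at least 50. Blue points are E18.5 and red points P28, chosen for the size of their change, so that the ages lie apart by choice; H19 is the gene whose P28 libraries lie farthest apart.

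Matrix genes changed in opposite directions by family. Small leucine-rich proteoglycans, which bind collagen fibrils and set their spacing, rose: of 15 small leucine-rich proteoglycans listed, 14 in the tables and 10 tested, 9 rose and 0 fell, with a median log2 difference of 2.50. Dcn (decorin; mm10, chromosome 10, 97479609 to 97518143) went from 382 and 369 to 7291 and 11433 (log2 difference 4.60, SE 0.21, adjusted p = 1.13e-11). Lum (lumican) went from 2.81 and 1.28 to 56.1 and 75.4 and Podn (podocan) from 81.5 and 102 to 615 and 748. Ecm2 went from 13.2 and 5.12 to 296 and 417, a rise of 5.24 that was 5.85 without E18.5 replicate 1 and 4.63 without E18.5 replicate 2. Together with Prelp, the list took 0.136% and 0.143% of all values at E18.5 and 1.16% and 1.55% at P28.

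Fibrillar collagens, the rods those proteoglycans bind, rose modestly. Of 10 fibrillar collagens listed, 10 in the tables and 10 tested, 4 rose and 1 fell, median 0.66. The rises numbered 2 without P28 replicate 1, and the falls numbered 2 without P28 replicate 2. Col3a1 went from 3064 and 3491 to 8772 and 7233 (log2 difference 1.28, SE 0.18, adjusted p = 2.23e-05). Col1a2, whose promoter drives the sorted reporter, went from 1600.3 and 1945 to 3317 and 3120.2 (log2 difference 0.87, SE 0.17, adjusted p = 0.000754), and Col1a1 went from 1281 and 1464 to 2730.1 and 2001 (log2 difference 0.77, SE 0.18, adjusted p = 0.00309). The call for Col1a1 was lost without P28 replicate 1 (0.55, adjusted p = 0.0551). Col5a1, which nucleates fibrils, went from 214 and 224 to 335 and 299 and rose by 0.53. Its call was lost without E18.5 replicate 1 (0.50, adjusted p = 0.115), without E18.5 replicate 2 (0.56, adjusted p = 0.082) or without P28 replicate 1 (0.45, adjusted p = 0.142). The 1 that fell was Col24a1, a minor fibrillar chain, from 35.1 and 44.4 to 2.07 and 2.79.

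Fibril-associated, membrane and network collagens fell more often than they rose. Of 21 FACIT and other collagens listed, 21 in the tables and 14 tested, 1 rose and 7 fell, median -0.51. Col13a1, a transmembrane collagen used as a marker of alveolar fibroblasts, went from 2595 and 2356 to 920.5 and 872 (log2 difference -1.46, SE 0.20, adjusted p = 1.74e-05). Col18a1, the source of endostatin, went from 906 and 908 to 313 and 298 (log2 difference -1.57, SE 0.18, adjusted p = 1.65e-06). Col14a1, a fibril-associated collagen, did not pass, with values given below. The 1 riser was Col15a1, from 2.53 and 0 to 89.2 and 77.0, a rise of 5.48. It was 6.39 without E18.5 replicate 1 and 4.57 without E18.5 replicate 2. The falls numbered 3 without E18.5 replicate 2.

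The elastic fibre genes changed in both directions. Of 17 elastic fibre genes listed, 17 in the tables and 16 tested, 6 rose and 5 fell, median 0.22. Elastin itself, Eln, went from 2486 and 3077 to 345 and 603 (log2 difference -2.60, SE 0.22, adjusted p = 3.89e-08). Mfap4, a microfibril protein, fell from 2158 and 2691 to 961 and 926, and Fbln5, which assembles elastin onto microfibrils, from 2310.1 and 2273 to 1197 and 1109. Mfap2, another microfibril gene, fell from 20.5 and 27.7 to 4.13 and 6.38. Fbn2, the fetal fibrillin, went from 13.2 and 23.9 to 0 and 1.6. Its difference of -3.54 was -2.86 without P28 replicate 1 and -4.23 without P28 replicate 2. Fbn1, the fibrillin used throughout life, went from 272 and 348 to 339.9 and 295 and did not pass (log2 difference 0.04, SE 0.19, adjusted p = 0.894).

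The elastic fibre genes that rose included binding partners of growth factors. Ltbp4 and Ltbp1, which hold latent TGF-beta in the matrix, went from 299 and 296 to 789 and 822 and from 65.2 and 54.6 to 181 and 195. Fbln1 went from 126 and 126 to 604 and 524 (log2 difference 2.15, SE 0.18, adjusted p = 4.11e-08) and Mfap5 from 2.25 and 2.99 to 32.2 and 43.5 (log2 difference 3.42, SE 0.36, adjusted p = 7.12e-07). In the collagen processing list, Lox, the oxidase that crosslinks elastin and collagen, went from 6430.1 and 7274 to 881 and 1418 (log2 difference -2.61, SE 0.21, adjusted p = 1.98e-08). Its homolog Loxl1 rose from 33.4 and 37.1 to 64.7 and 58.2 and Loxl2 from 52.0 and 67.0 to 123 and 109.7. Pcolce, an enhancer of procollagen cleavage, went from 1245 and 1291 to 4458 and 4408 and its paralog Pcolce2 from 32.0 and 24.7 to 259.6 and 314, rises of 1.81 and 3.30. Of 27 collagen processing enzymes listed, 27 in the tables and 21 tested, 8 rose and 3 fell, median 0.34. The rises numbered 5 without P28 replicate 1.

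Matricellular and basement membrane genes changed in both directions. Sparc, a collagen-binding matricellular protein and 1 of the 10 called genes with the highest values, went from 17135 and 20967 to 55882 and 55161 (log2 difference 1.55, SE 0.21, adjusted p = 1.2e-05). Fn1 (fibronectin) went from 1632 and 1806 to 381 and 288 (log2 difference -2.37, SE 0.18, adjusted p = 1.02e-08). Ctgf, a matricellular target of TGF-beta and YAP signalling, went from 242 and 168 to 1579 and 1519, and Thbs1 (thrombospondin 1) from 106 and 75.1 to 378 and 290.3, rises of 2.94 and 1.88. Tnxb, a tenascin of loose connective tissue, went from 0 and 0.427 to 67.3 and 58.2. Of 31 matricellular glycoproteins listed, 29 in the tables and 25 tested, 11 rose and 4 fell, median 1.07. The falls numbered 1 without E18.5 replicate 2, 1 without P28 replicate 1 and 2 without P28 replicate 2.

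Among laminins, Lama5 went from 567 and 503 to 34.3 and 36.3 (log2 difference -3.88, SE 0.19, adjusted p = 3.99e-11) while Lama2 went from 14.3 and 13.2 to 144 and 156 (log2 difference 3.35, SE 0.23, adjusted p = 2.36e-09). Npnt (nephronectin), a ligand of integrin alpha 8, went from 605 and 697 to 3192 and 3300.0 (log2 difference 2.32, SE 0.17, adjusted p = 7.96e-09). The type IV collagen chains Col4a5 and Col4a6 rose, Col4a5 from 4.78 and 3.41 to 34.6 and 36.7 and Col4a6 from 3.09 and 1.71 to 29.8 and 26.7. Col4a2 fell by 0.76, from 2564 and 2906 to 1786 and 1448. Of 22 basement membrane genes listed, 22 in the tables and 18 tested, 7 rose and 4 fell, median 0.23.

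Genes that cut matrix or block its cutting mostly rose. Of 37 matrix proteases and inhibitors listed, 35 in the tables and 31 tested, 19 rose and 4 fell, median 1.43. The metalloprotease inhibitor gene Timp2 went from 99.7 and 81.9 to 908 and 983 and its relative Timp3 from 79.5 and 87.4 to 270.5 and 406. Plat, the tissue plasminogen activator, went from 47.5 and 58.0 to 242 and 364 (log2 difference 2.48, SE 0.24, adjusted p = 2.29e-07). Mmp3 (stromelysin) had no read at E18.5 and values of 21.9 and 31.9 at P28, at least 51.4-fold higher against a floor of 3 reads over the E18.5 group. Of the 4 that fell, the membrane collagenase Mmp14 went from 902 and 931 to 433 and 597 and Adamts17, a protease linked to microfibrils, from 237 and 235 to 36.3 and 48.3.

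**Figure D3:**
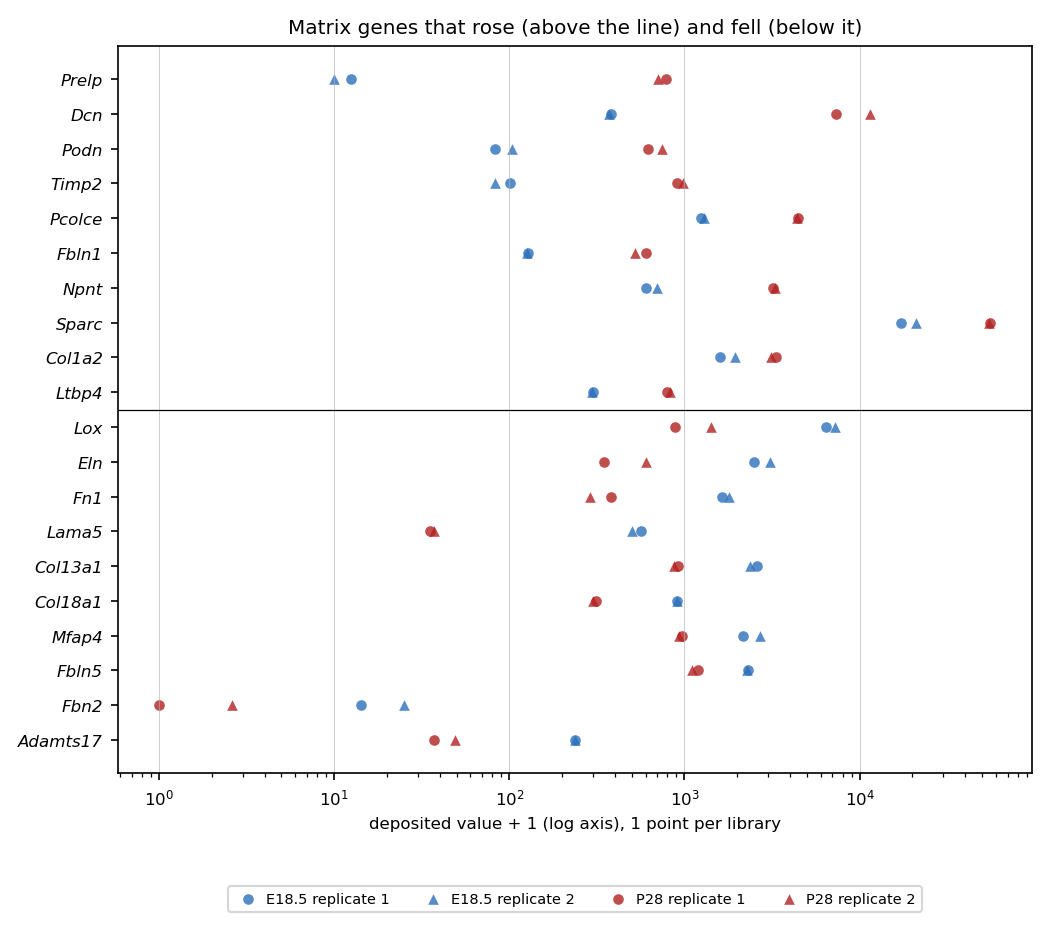
Deposited value + 1 (log axis) in each of the 4 libraries for 10 matrix genes that rose (above the line) and 10 that fell (below it); blue points are E18.5 and red points P28. All genes drawn were called, and the 2 ages are separate in nearly all called genes; Dcn rises from 382 and 369 to 7291 and 11433 while Lox falls from 6430.1 and 7274 to 881 and 1418.

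Markers of fibroblast subtypes moved unequally. Of 25 adventitial fibroblast genes listed, 25 in the tables and 20 tested, 15 rose and 0 fell. The median was 2.74, or 3.09 with 2 members that had no read at E18.5 set to their bound. Igfbp6, an inhibitor of IGF2, went from 144 and 196 to 3279.9 and 3561 (log2 difference 4.34, SE 0.20, adjusted p = 1.08e-11). Cd34, a sialomucin of adventitial fibroblasts that endothelium also carries, went from 20.2 and 54.6 to 664 and 663. It rose by 4.27, 3.58 without E18.5 replicate 1 and 4.97 without E18.5 replicate 2. Has1, a hyaluronan synthase, went from 1.4 and 0.853 to 62.6 and 37.1. Col14a1, another gene of that list, went from 53.4 and 56.7 to 49.3 and 52.2 and did not pass (log2 difference -0.11, SE 0.24, adjusted p = 0.753). Lists overlap: Dcn also counts among the proteoglycans and the imprinted genes.

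Lipofibroblasts store neutral lipid next to type 2 cells, and their genes fell more often than they rose. Of 19 lipofibroblast genes listed, 18 in the tables and 16 tested, 4 rose and 8 fell, median -0.66. Plin2, the coat protein of lipid droplets, went from 1419.7 and 1213 to 532 and 479 (log2 difference -1.38, SE 0.17, adjusted p = 4.07e-06). G0s2, an inhibitor of droplet lipolysis, went from 7845 and 8719.6 to 1752 and 2467 (log2 difference -1.99, SE 0.20, adjusted p = 2.62e-07), and Gyg, which primes glycogen, from 392 and 406 to 60.2 and 54.6 (log2 difference -2.78, SE 0.19, adjusted p = 1.76e-09). The risers included Lpl, the lipoprotein lipase that brings fatty acids into the cell, from 7.58 and 12.8 to 49.6 and 42.3, and Inmt, a methyltransferase, from 58.7 and 38.4 to 735 and 889.

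The contractile list was divided. Of 21 myofibroblast and smooth muscle contractile genes listed, 21 in the tables and 18 tested, 5 rose and 6 fell, median -0.04. The falls numbered 3 without E18.5 replicate 2. The tropomyosin gene Tpm2 went from 454 and 695 to 131 and 159 and Tpm1 from 255 and 201 to 111 and 71.8, both falls past the test when any 1 of the 4 libraries was left out. Acta2 (smooth muscle actin) went from 23.03 and 28.6 to 9.45 and 16.0 and fell by 1.002, a call lost without E18.5 replicate 2 (-0.85, adjusted p = 0.0612) or without P28 replicate 1 (-0.65, adjusted p = 0.0959). Mylk, the myosin light chain kinase, went from 566 and 583 to 325 and 284. Among the risers, the actin-binding smoothelin gene Smtn went from 145 and 159 to 271 and 328 and Tagln (transgelin) from 22.2 and 23.9 to 41.6 and 59.8. The Tagln call was lost without P28 replicate 2 (0.83, adjusted p = 0.121). Pdgfra, the PDGF-A receptor carried by septal myofibroblast precursors and by other fibroblasts, went from 12.4 and 14.9 to 112 and 102 (log2 difference 2.89, SE 0.29, adjusted p = 2.91e-07).

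Transcription factors of the lung mesenchyme fell and rose in like numbers. Of 40 mesenchymal transcription factors listed, 39 in the tables and 31 tested, 12 rose and 10 fell, median 0.41. The falls numbered 6 without E18.5 replicate 2 and 4 without P28 replicate 2. Tbx2, which restrains cell cycle inhibitors in fetal lung mesenchyme, went from 1272 and 1521 to 392 and 358 (log2 difference -1.89, SE 0.20, adjusted p = 8.5e-07), and its relative Tbx3 from 137 and 118 to 61.4 and 63.8. Snai2 went from 511 and 578 to 144 and 197 and Meox2 from 69.1 and 77.2 to 19.2 and 19.5. Among risers, Mef2c went from 2.53 and 4.69 to 39.3 and 39.9 and Heyl, a Notch target, from 5.62 and 5.54 to 83.3 and 65.4. Klf4, also an immediate early gene, went from 285 and 179.6 to 3281 and 2718. Of 28 Hox cluster genes listed, 20 in the tables and 12 tested, 0 rose and 4 fell. The share called, 33.3%, was near the 33.6% over all genes tested, of which 18.7% rose and 14.9% fell. The gene with the clearest fall, Hoxb5, a lung mesenchyme Hox gene, went from 171 and 165 to 31.9 and 32.7 (log2 difference -2.34, SE 0.19, adjusted p = 2.68e-08), while Hoxa7 went from 63.5 and 56.7 to 74.1 and 63.0 and did not pass (log2 difference 0.18, SE 0.26, adjusted p = 0.631).

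**Figure D4:**
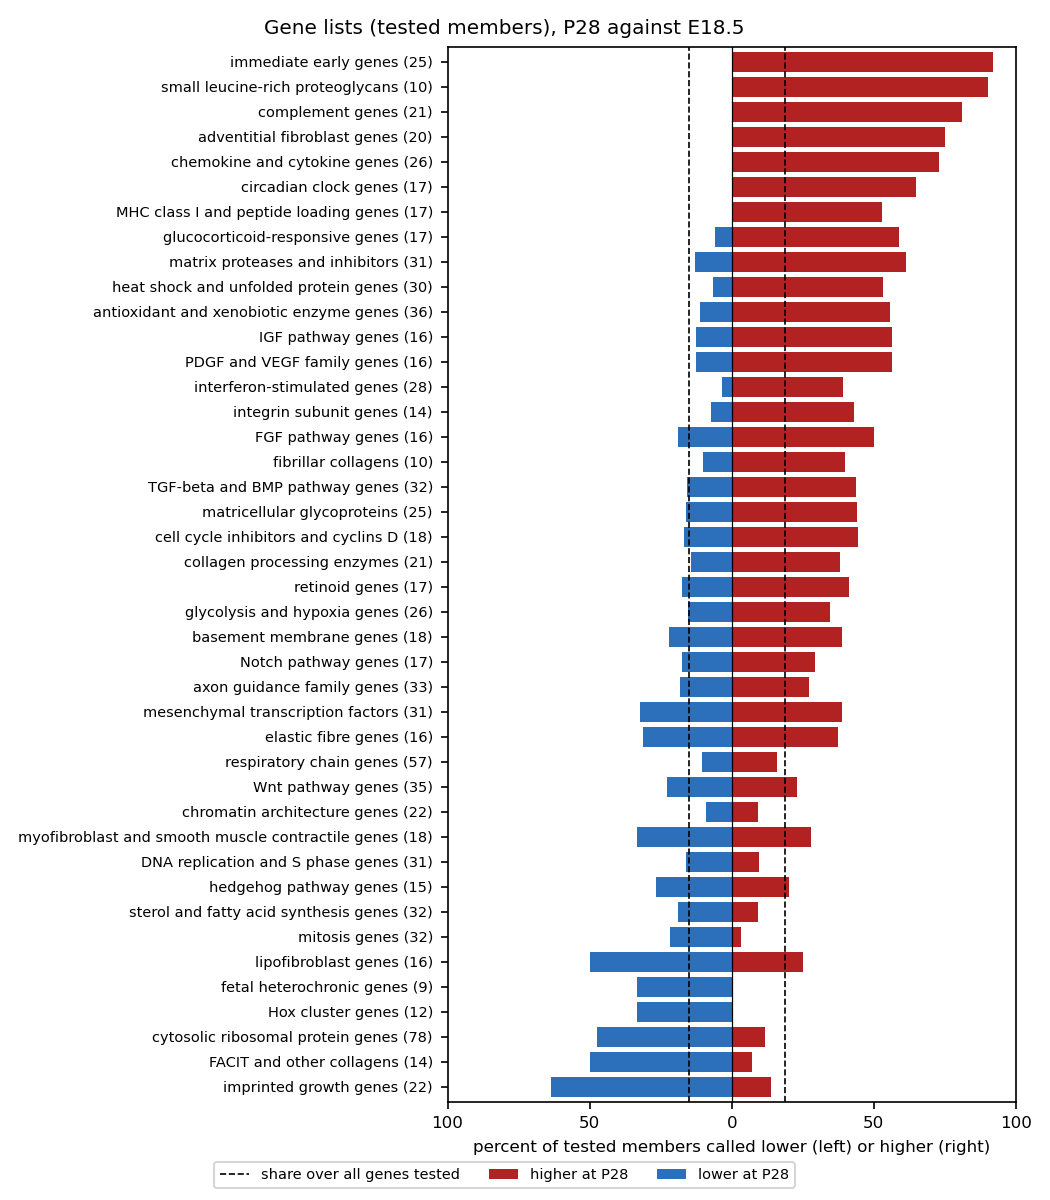
Percent of the tested members of 42 gene lists called lower (blue, left) or higher (red, right) at P28, with the number tested in brackets. Dashed lines mark the shares over all genes tested, 14.9% lower and 18.7% higher; immediate early genes and small leucine-rich proteoglycans reach farthest right, and imprinted growth genes farthest left.

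Imprinted genes, many of which set fetal growth, fell more often than they rose. Of 25 imprinted growth genes listed, 23 in the tables and 22 tested, 3 rose and 14 fell, median -1.34. Beside H19 and Mest above, Igf2r, the decoy receptor that degrades IGF2 (mm10, chromosome 17, 12682406 to 12769664), went from 1249 and 1253 to 127 and 142 (log2 difference -3.21, SE 0.16, adjusted p = 4.64e-11). Plagl1, a zinc finger factor that acts on other imprinted genes, went from 404 and 459 to 105 and 84.1, and Cdkn1c, the maternally expressed inhibitor of the cell cycle, from 420.2 and 487 to 113 and 70.2. The growth factor Igf2 itself was low in these tag data, from 26.1 and 16.2 to 2.66 and 2.79 (log2 difference -2.54, SE 0.37, adjusted p = 3.08e-05). The summed share of the list was higher at P28, where Dcn is its most abundant member: it took 0.6% and 0.623% of all values at E18.5 and 0.86% and 1.26% at P28. The 3 that rose included Dcn, which is imprinted in mouse placenta. Impact, a regulator of translation, rose from 149.7 and 94.3 to 446 and 375 and Peg10 from 4.78 and 1.28 to 16.2 and 7.98. The call for Peg10 was lost without E18.5 replicate 2 (1.11, adjusted p = 0.165) or P28 replicate 1 (1.31, adjusted p = 0.155), and its rise of 1.78 was 2.45 without E18.5 replicate 1. Without P28 replicate 2, the library with the higher H19 and Xist, the median of the list was -1.28, with 13 falls.

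Igf1 and most IGF binding proteins rose, while Igf2 and Igf2r fell. Of 17 IGF pathway genes listed, 17 in the tables and 16 tested, 9 rose and 2 fell, median 1.41, the falls being Igf2 and Igf2r. Igf1, the postnatal ligand, went from 41.6 and 54.6 to 410.2 and 446 (log2 difference 3.14, SE 0.19, adjusted p = 6.4e-10). The binding protein gene Igfbp5 went from 14.0 and 19.6 to 271 and 233, Igfbp3 from 16.6 and 17.1 to 128 and 122 and Igfbp7 from 55.9 and 62.7 to 478 and 462. Igf1r, the shared receptor, went from 134 and 127 to 94.5 and 92.1 and did not pass (log2 difference -0.48, SE 0.19, adjusted p = 0.0577), and Igfbp4 went from 231 and 246 to 283 and 289.9 without passing.

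Genes of the cell cycle itself were called somewhat less often than all genes, 25% of mitosis and 25.8% of S phase genes tested beside 33.6%. Many had low values, where a change may not be detectable: a filter of 10 kept only 16 mitosis and 17 S phase genes. Of 52 mitosis genes listed, 52 in the tables and 32 tested, 1 rose and 7 fell, median -0.47. These are 3.1% and 21.9%, beside 18.7% and 14.9% over all genes. The falls numbered 3 without P28 replicate 2. Smc4, a condensin subunit, went from 118 and 88.7 to 30.7 and 42.7 (log2 difference -1.47, SE 0.25, adjusted p = 0.000133), and Bub1b, a spindle checkpoint kinase, from 10.96 and 8.1 to 1.77 and 1.2. Of 43 DNA replication and S phase genes listed, 43 in the tables and 31 tested, 3 rose and 5 fell, median -0.39, beside 18.7% and 14.9% over all genes. The rises numbered 1 without E18.5 replicate 2, and the falls numbered 2 without E18.5 replicate 1, 3 without P28 replicate 1 and 3 without P28 replicate 2. Among inhibitors of the cycle, Cdkn1a (p21) went from 261 and 145 to 1323 and 964 (log2 difference 2.53, SE 0.23, adjusted p = 8.38e-08), while Cdkn1b (p27) fell by 0.91, from 516 and 422 to 269.9 and 228. Gas6 and Gas1, named for high expression in growth-arrested fibroblasts, went from 19.1 and 20.05 to 134 and 194 and from 5.34 and 5.12 to 26.3 and 26.7. Of 20 cell cycle inhibitors and cyclins D listed, 20 in the tables and 18 tested, 8 rose and 3 fell, median 0.62. The rises numbered 5 without E18.5 replicate 2. Of the fetal heterochronic list, 3 of 9 tested genes fell and none rose. The share called, 33.3%, was near the 33.6% over all genes, though all of it was falls. Igf2bp1 had no read at P28 and values of 8.71 and 7.68 at E18.5, at least 16.3-fold lower against the floor.

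In the TGF-beta and BMP pathway, 14 rose and 5 fell among 32 tested of 39 listed genes, median 0.71. The ligand Tgfb3 went from 17.4 and 12.4 to 95.1 and 84.9 (log2 difference 2.53, SE 0.24, adjusted p = 1.33e-07). Chrdl1, a secreted BMP antagonist, had no read at E18.5 and values of 14.5 and 17.9 at P28, at least 31.4-fold higher against the floor. The intracellular brake Skil, a repressor of SMAD proteins, went from 33.4 and 18.3 to 118 and 99.3. Id1, a gene that BMP signalling induces, went from 52.5 and 40.1 to 12.4 and 15.2 (log2 difference -1.67, SE 0.29, adjusted p = 0.000157) and Smad6, an inhibitor of the pathway, from 114 and 104 to 39.9 and 53.8 (log2 difference -1.22, SE 0.22, adjusted p = 0.000221). Bmp6 had no read at P28 and values of 6.74 and 5.97 at E18.5, at least 12.6-fold lower against the floor.

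Hedgehog and Wnt genes went both ways, in shares not far from those over all genes (18.7% higher and 14.9% lower). In the hedgehog list 3 rose and 4 fell of 15 tested, median -0.14. The rises numbered 1 without E18.5 replicate 1 and 1 without P28 replicate 1. The receptor and target Ptch1 went from 75.6 and 69.1 to 44.3 and 39.1 (log2 difference -0.78, SE 0.21, adjusted p = 0.00704). Kif7, a ciliary regulator of GLI factors, went from 40.4 and 53.3 to 12.7 and 15.6. Shh, also among the 4 that fell, had 60 reads at E18.5 and 2 at P28. The part of epithelial cells in the Shh fall was not tested. The target and decoy Hhip went from 365 and 409 to 225 and 249.6 and fell by 0.70, a call lost without E18.5 replicate 2 (-0.62, adjusted p = 0.0656) or P28 replicate 1 (-0.63, adjusted p = 0.0565). In the Wnt list 8 rose and 8 fell of 35, 22.9% each way, median -0.06. The rises numbered 5 without E18.5 replicate 2 and 5 without P28 replicate 1. The ligand Wnt2, which helps specify the lung, went from 45.5 and 58.9 to 12.4 and 14.0 (log2 difference -1.90, SE 0.28, adjusted p = 2.73e-05). The feedback target Axin2 went from 120.2 and 116 to 52.0 and 53.4 and Nkd1, another, from 27.2 and 26.9 to 9.45 and 3.99, log2 differences of -1.15 and -1.96. On the receptor side Fzd5 rose from 26.1 and 24.3 to 110.1 and 78.6 and Lrp6 from 33.1 and 36.3 to 83.3 and 66.2. Rspo3, a ligand that raises receptor levels, rose from 2.25 and 1.28 to 21.3 and 11.6.

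Among FGF genes 8 rose and 3 fell of 16 tested, median 0.50. The rises numbered 4 without P28 replicate 2, and the falls numbered 1 without E18.5 replicate 1 and 1 without P28 replicate 2. Fgf2 went from 93.8 and 90.9 to 558 and 437 (log2 difference 2.41, SE 0.19, adjusted p = 1.61e-08) and the receptor Fgfr1 from 169 and 207 to 408 and 386 (log2 difference 1.08, SE 0.17, adjusted p = 8.98e-05). Fgfr3 went from 63.8 and 51.6 to 27.5 and 15.6 and fell by 1.43. Fgf10, the branching signal of fetal mesenchyme, went from 47.5 and 35.0 to 27.5 and 23.5, with a log2 difference of -0.66. Its call was lost without E18.5 replicate 1 (-0.45, adjusted p = 0.284), P28 replicate 1 (-0.77, adjusted p = 0.0643) or P28 replicate 2 (-0.55, adjusted p = 0.17). In the PDGF and VEGF families 9 rose and 2 fell of 16 tested, median 1.03. The falls numbered 0 without E18.5 replicate 1, 1 without E18.5 replicate 2, 1 without P28 replicate 1 and 0 without P28 replicate 2. Pdgfd had no read at E18.5 and values of 11.2 and 11.96 at P28, at least 22.7-fold higher against the floor. Figf, the former symbol of Vegfd, was high at both ages, from 1739.9 and 2229 to 1556 and 1879.9, and did not pass (log2 difference -0.20, SE 0.19, adjusted p = 0.439).

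Retinoid genes changed in both directions. Of 24 retinoid genes listed, 23 in the tables and 17 tested, 7 rose and 3 fell, median 0.21. Lrat, which esterifies retinol for storage, went from 8.15 and 10.2 to 312 and 278 (log2 difference 4.87, SE 0.32, adjusted p = 1.5e-09). Adh1, an alcohol dehydrogenase that can oxidise retinol, went from 578 and 642 to 112 and 129 (log2 difference -2.33, SE 0.18, adjusted p = 9.31e-09), and the receptor Rara went from 86.2 and 107 to 46.7 and 37.9 (log2 difference -1.17, SE 0.22, adjusted p = 0.000447). The retinal dehydrogenase Aldh1a2 went from 0.562 and 3.84 to 17.4 and 18.7 and rose by 2.79, 1.98 without E18.5 replicate 1 and 3.61 without E18.5 replicate 2. In the Notch list 5 rose and 3 fell of 17, 29.4% and 17.65%, not far from 18.7% and 14.9% over all genes. The rises numbered 2 without E18.5 replicate 1, 3 without E18.5 replicate 2 and 1 without P28 replicate 1. The imprinted ligand relative Dlk1 went from 26.4 and 17.1 to 1.18 and 2.39 (log2 difference -3.03, SE 0.51, adjusted p = 0.000133).

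Genes of the translation machinery took a smaller part of the mRNA at P28. The 78 ribosomal protein genes tested held 15.01% and 14.7% of all values at E18.5 and 7.75% and 7.94% at P28. Of them, 9 rose and 37 fell, median -0.59. The rises ranged from 6 to 13 and the falls from 29 to 40 when 1 of the 4 libraries was left out. Rpl5 went from 16077 and 16655 to 5587 and 7346 (log2 difference -1.35, SE 0.20, adjusted p = 2.89e-05) and Rplp0 from 6624 and 5721 to 1206 and 2274. Eef1a1, the elongation factor that brings tRNA to the ribosome, went from 60360.3 and 64038 to 19198 and 22661 (log2 difference -1.58, SE 0.23, adjusted p = 3.06e-05). Rpl5 and Eef1a1 are among the 10 called genes with the highest values. So are the riser Vim (vimentin), from 5628 and 5868 to 17396 and 15738, and the gene model Gm33784, from 3722 and 2692 to 15236 and 8860.4.

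The ribosomal protein genes that rose and fell differed in coding length. The 9 that rose had a median of 291 bases, from 168 to 789, the longest being Rps4x. The 37 that fell had a median of 582 bases, from 411 to 951, and the 32 that did not pass 399 bases, from 153 to 1257. Rplp1 went from 23.9 and 14.9 to 154 and 94.9 (log2 difference 2.61, SE 0.25, adjusted p = 1.8e-07), Rps29 from 51.1 and 49.1 to 235 and 152 and Rpl38 from 1482 and 1301 to 4344 and 2750.5. Over the 78 genes, the log2 difference and coding length had a Pearson correlation of -0.555 (Spearman -0.727), given as a description across genes that share the 4 libraries. Over 10172 genes tested with a coding length, it was 0.004 (Spearman -0.008). Ribosomal protein genes have many near-identical pseudogenes, and reads could be split between them, so single values are uncertain.

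Complement genes, part of innate defence, mostly rose. Of 30 complement genes listed, 27 in the tables and 21 tested, 17 rose and 0 fell, median 2.91, with 17 rises when any 1 of the 4 libraries was left out. C3, the central component, went from 7.87 and 10.7 to 355 and 329 (log2 difference 5.08, SE 0.44, adjusted p = 6.12e-08), and C1s1, a protease of the classical pathway, from 3.65 and 2.56 to 100.1 and 92.9 (log2 difference 4.58, SE 0.31, adjusted p = 1.92e-09). The terminal component C7 went from 21.9 and 40.9 to 372 and 325. The list took 0.311% and 0.353% of all values at E18.5 and 0.935% and 0.95% at P28.

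Of 39 chemokine and cytokine genes listed, 39 in the tables and 26 tested, 19 rose and 0 fell, median 2.58, and the list took 0.0561% and 0.0603% of all values at E18.5 and 0.462% and 0.339% at P28. Il6 rose by 5.07 (SE 0.35, adjusted p = 2.23e-09), and Lif, a cytokine of the same family, went from 77.2 and 60.6 to 1546 and 739 (log2 difference 3.95, SE 0.27, adjusted p = 1.92e-09).

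Of 38 interferon-stimulated genes listed, 36 in the tables and 28 tested, 11 rose and 1 fell, median 1.02. Ifi27l2a went from 30.6 and 13.2 to 1145 and 866 (log2 difference 5.55, SE 0.28, adjusted p = 3.99e-11), the transcription factor Irf1 from 53.9 and 43.9 to 372 and 359 and Ifit3 from 2.81 and 1.28 to 57.0 and 66.2. The ubiquitin-like Isg15 went from 3.37 and 2.99 to 23.9 and 22.7. Gbp2, a guanylate-binding GTPase, went from 3.09 and 0 to 32.2 and 30.7. It rose by 4.004, 5.02 without E18.5 replicate 1 and 2.99 without E18.5 replicate 2. The abundant members did not rise: Ifitm3 went from 1049 and 1103 to 1189 and 1072 (log2 difference 0.07, SE 0.16, adjusted p = 0.78), and Ifitm1 went from 2531 and 2511 to 1806 and 1874 and fell by 0.45. The Ifitm1 call was lost without E18.5 replicate 1 (-0.45, adjusted p = 0.138), E18.5 replicate 2 (-0.46, adjusted p = 0.14), P28 replicate 1 (-0.43, adjusted p = 0.125) or P28 replicate 2 (-0.48, adjusted p = 0.0815).

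Upstream of Cxcl10, Ifit3, Isg15 and Gbp2 stand the letters of an interferon-stimulated response element (GAAA, any 2 bases, then GAAA) on either strand, in capitals. They are shown because these letters were found within 250 upstream bases in 6 of the 8 rising genes of the interferon list with an entry. They were found in 5 of the 14 of that list that did not pass and in 3.46% of all 27025 genes with an entry. Cxcl10 is outside that list. Among chemokine and cytokine genes with an entry, which include it, 4 of 14 that rose and 0 of 4 that did not pass hold the letters. For MHC class I and peptide loading genes these were 2 of 7 and 1 of 8.
Cxcl10, chr5:92349020-92349139, minus strand: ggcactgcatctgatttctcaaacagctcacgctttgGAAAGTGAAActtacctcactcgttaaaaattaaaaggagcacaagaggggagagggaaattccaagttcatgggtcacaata
Ifit3, chr19:34583347-34583466, plus strand: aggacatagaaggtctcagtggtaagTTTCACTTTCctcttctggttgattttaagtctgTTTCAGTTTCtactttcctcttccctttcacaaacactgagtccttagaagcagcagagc
Isg15, chr4:156200849-156200968, minus strand: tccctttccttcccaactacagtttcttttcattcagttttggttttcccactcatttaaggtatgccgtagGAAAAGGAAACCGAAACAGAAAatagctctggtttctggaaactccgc
Gbp2, chr3:142620513-142620632, plus strand: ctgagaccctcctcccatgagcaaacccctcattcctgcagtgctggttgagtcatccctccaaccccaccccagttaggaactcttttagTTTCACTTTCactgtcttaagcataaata
Matches overlap in Isg15, which has 3 of them starting 78 to 66 bases before the start site. Ifit3 has 2, starting 156 and 122 bases before it. Cxcl10 has 1 at 213 bases and Gbp2 1 at 59 bases. As with the κB letters, the motif was chosen with the rises known.

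MHC genes of both classes included rises and no fall. For class I, of 21 MHC class I and peptide loading genes listed, 21 in the tables and 17 tested, 9 rose and 0 fell, median 1.24. H2-K1 went from 2.81 and 1.71 to 48.1 and 39.9 (log2 difference 3.80, SE 0.36, adjusted p = 1.91e-07), its light chain B2m from 7.02 and 5.12 to 37.8 and 52.6 (log2 difference 2.70, SE 0.31, adjusted p = 1.6e-06), and Psmb8, an immunoproteasome subunit, from 30.6 and 19.6 to 161 and 161 (log2 difference 2.67, SE 0.33, adjusted p = 5.4e-06). H2 genes are near-identical copies, and their split is uncertain. For class II, of 12 MHC class II genes listed, 11 in the tables and 5 tested, 3 rose and 0 fell. Their median was 2.91, or 3.57 with H2-Aa, which had no read at E18.5, at its bound. H2-Eb1 went from 2.25 and 2.56 to 81.8 and 429, a rise of 5.79 that was 6.98 without P28 replicate 1 and 4.61 without P28 replicate 2. Cd74, the invariant chain, went from 0.281 and 0 to 6.5 and 23.1. Its 1 read at E18.5 against 80 at P28 gave a ratio of 80.1-fold (95% exact counting interval 14.0 to 3205). It rose by 3.57, 4.41 without P28 replicate 1 and 2.73 without P28 replicate 2.

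Of 8 leukocyte markers tested, 3 rose and 0 fell. The rises numbered 1 without E18.5 replicate 1 and 1 without P28 replicate 2. The summed value of 17 leukocyte markers in the tables went from 5.34 and 29.9 to 69.7 and 206, with S100a8 and S100a9 at 0 throughout. Ms4a1, the B cell antigen CD20, had no read at E18.5 and values of 16.2 and 68.2 at P28. Its difference of 5.11 was 6.11 without P28 replicate 1 and 4.11 without P28 replicate 2. Laptm5, found across blood lineages, went from 1.69 and 14.9 to 21.3 and 86.5. Its rise of 2.75 was 4.04 without E18.5 replicate 2 and 3.74 without P28 replicate 1, and the call was lost without E18.5 replicate 1 (1.47, adjusted p = 0.216) or P28 replicate 2 (1.77, adjusted p = 0.238). P28 replicate 2 was the highest library for Ms4a1, Laptm5, H2-Eb1 and Cd74, whereas Cd68, a macrophage marker that did not pass, went from 0 and 0.853 to 4.43 and 0.798. The part of leukocytes in the class II rise was not tested. Among 7 erythroid markers tested, 2 rose and 1 fell. The rises numbered 4 without P28 replicate 1 and 0 without P28 replicate 2, and the falls numbered 2 without P28 replicate 2. The globin gene Hba-a1 went from 31.2 and 34.5 to 62.9 and 204 (log2 difference 1.76, SE 0.40, adjusted p = 0.00191). Its rise was 2.60 without P28 replicate 1, and the call was lost without P28 replicate 2 (0.92, adjusted p = 0.0863). Its near-identical copy Hba-a2 went from 27.0 and 35.0 to 57.9 and 200.2, with a rise of 1.78 that was 2.67 without P28 replicate 1 and lost its call without P28 replicate 2 (0.89, adjusted p = 0.0887). Hbb-bs went from 294 and 414 to 269.9 and 1242 and did not pass (log2 difference 0.73, SE 0.48, adjusted p = 0.26), except without P28 replicate 1 (1.83, adjusted p = 0.00824). Car2, a carbonic anhydrase, fell from 99.2 and 105 to 18.3 and 19.1.

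**Figure D5:**
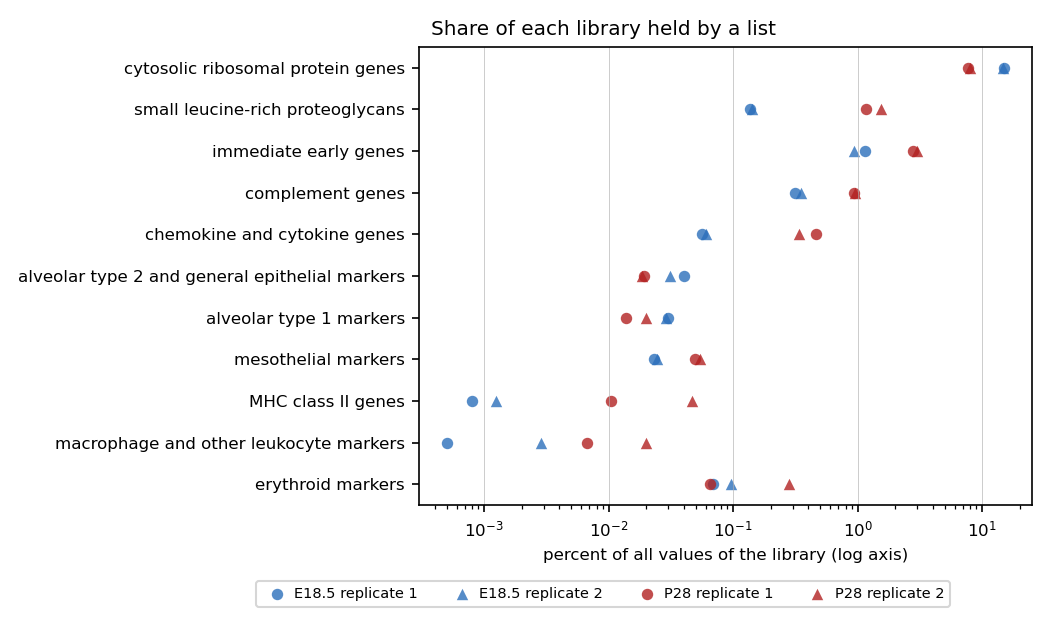
Percent of all values of a library (log axis) held by 5 functional lists and 6 marker lists, with blue points for E18.5, red points for P28, circles for replicate 1 and triangles for replicate 2. Ribosomal protein genes drop from 15.01% and 14.7% to 7.75% and 7.94% and proteoglycans rise from below 0.15% to above 1%, while class II, leukocyte and erythroid genes are highest in P28 replicate 2.

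Genes that respond within minutes to growth factors or to handling of cells were higher at P28. Of 26 immediate early genes listed, 25 in the tables and 25 tested, 23 rose and 0 fell, median 1.58, and 20 to 22 rose when 1 of the 4 libraries was left out. Fosb went from 609.6 and 369 to 3030.4 and 3563 (log2 difference 2.79, SE 0.21, adjusted p = 1.02e-08), Klf4 rose by 3.72, and the phosphatase Dusp1 went from 209 and 195 to 633 and 564 (log2 difference 1.56, SE 0.17, adjusted p = 8.82e-07). The nuclear receptor Nr4a3 went from 111 and 30.3 to 664 and 469.8 and rose by 3.24, 4.16 without E18.5 replicate 1 and 2.33 without E18.5 replicate 2. Jund, a constitutive AP-1 member, went from 485 and 359 to 471 and 519 and did not pass (log2 difference 0.24, SE 0.18, adjusted p = 0.334). The list took 1.15% and 0.933% of all values at E18.5 and 2.79% and 2.98% at P28. These values stand beside the rises of Cxcl1, Cxcl2, Cxcl3, Il6 and Lif, which rapid responses also include, and the part of the digestion in either was not tested.

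Heat shock and unfolded protein genes rose more often than they fell. Of 33 heat shock and unfolded protein genes listed, 32 in the tables and 30 tested, 16 rose and 2 fell, median 0.71. The rises numbered 10 without E18.5 replicate 2, and the falls numbered 1 without P28 replicate 1. Hspa5 (BiP) went from 2212 and 1243 to 7661 and 5338 (log2 difference 1.95, SE 0.25, adjusted p = 6.96e-06), and Hsp90b1 from 509 and 329 to 2072 and 1251. Herpud1, which helps clear misfolded protein, went from 21.1 and 24.3 to 167 and 132. The 2 that fell also act in the endoplasmic reticulum. Pdia6, a disulfide isomerase, fell from 1148 and 1170.4 to 655 and 592 (log2 difference -0.90, SE 0.17, adjusted p = 0.000543). Sdf2l1 went from 67.4 and 64.4 to 12.7 and 46.7, a difference of -1.39 that was -2.29 without P28 replicate 2 and lost its call without P28 replicate 1 (-0.49, adjusted p = 0.246). The small cytosolic chaperone Hspb1 was abundant at both ages, from 15344 and 11191 to 18526 and 18397, and did not pass (log2 difference 0.49, SE 0.21, adjusted p = 0.0731), except without E18.5 replicate 1 (0.72, adjusted p = 0.0409). Of 42 antioxidant and xenobiotic enzyme genes listed, 41 in the tables and 36 tested, 20 rose and 4 fell, median 1.15. The falls numbered 2 without P28 replicate 2. Beside Sod3 and Mt2, the glutathione transferase Gsta4 went from 31.5 and 34.1 to 387 and 338 (log2 difference 3.43, SE 0.23, adjusted p = 1.67e-09) and Fmo2, a lung monooxygenase, from 876 and 811 to 2767 and 2171 (log2 difference 1.54, SE 0.18, adjusted p = 2.41e-06). The transferase Gstm2 fell by 1.30, from 559.6 and 633 to 246 and 237.

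Markers of other lung cells did not all move one way, and many but not all were low. In the type 2 and general epithelial list, 11 of the 20 in the tables stayed under 3 in all 4 libraries. Of 9 type 2 and general epithelial markers tested, 4 fell and 2 rose, and of 8 type 1 markers, 4 fell and 1 rose. Cldn18, a claudin of alveolar cells, fell from 93.8 and 111 to 7.09 and 33.5 (log2 difference -2.62, SE 0.56, adjusted p = 0.00118). Its call was lost without P28 replicate 1 (-1.58, adjusted p = 0.0763), and the difference was -3.67 without P28 replicate 2. Ager, a type 1 cell receptor, fell from 9.83 and 6.82 to 0 and 0.798 and Sfta2, a type 2 cell gene, from 14.0 and 11.1 to 0.295 and 0. The risers were Abca3, from 0 and 1.28 to 5.32 and 10.4, Etv5, from 0.562 and 2.56 to 3.25 and 8.37, and, of the type 1 list, Pdpn, from 2.81 and 0.427 to 21.0 and 15.2. Their rises of 2.49, 1.42 and 3.01 were 1.89, 0.83 and 3.72 without E18.5 replicate 1 and 3.08, 2.015 and 2.31 without E18.5 replicate 2. Among the more abundant members, Krt7 went from 181 and 102 to 117 and 90.9 and Emp2 from 123 and 128 to 99.5 and 136, and neither passed. Cdh1 stood at 0 in all 4 libraries, and Epcam as given above. In the type 2 list the rises numbered 1 without E18.5 replicate 1 and 1 without P28 replicate 2, and the falls numbered 2 without E18.5 replicate 1 and 2 without P28 replicate 1. In the type 1 list the falls numbered 2 without P28 replicate 1.

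The mesothelial list gave 6 rises among 8 tested genes, led by Upk1b, from 140.2 and 156 to 357 and 459. Among airway markers Tppp3, which fibroblasts also express, rose from 89.6 and 118 to 581 and 547, and 6 of the 8 in the tables stayed under 3 in all 4 libraries. Of 4 endothelial markers tested, 2 rose and 0 fell, Kdr from 0.281 and 0 to 5.61 and 7.58 and Tek from 0.281 and 0 to 3.84 and 4.39. Esam went from 8.99 and 7.68 to 4.43 and 4.39 and did not pass, Vwf stood at 0 throughout, and the summed value of the list went from 37.6 and 26.9 to 32.5 and 41.5. Of 9 pericyte and vascular smooth muscle markers tested, 1 rose and 0 fell, with a median of -0.38. The rises numbered 2 without E18.5 replicate 1. The 1 called, Abcc9, a channel subunit of pericytes, rose from 13.5 and 3.84 to 100.1 and 88.1. Its rise of 3.50 was 4.29 without E18.5 replicate 1 and 2.71 without E18.5 replicate 2. Cd68 and Esam were chosen after their values were seen. The part of these cells in the fibroblast differences was not tested. In the lists of the preceding paragraphs with a member at 0 in 1 group, other than the adventitial and class II lists, setting it to its bound left the printed median as it was.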

How the data were processed

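Lung fibroblasts were profiled by 3'SAGE-seq in 2 libraries at E18.5 and 2 at P28. The authors' deposited tables list a normalised signal per gene symbol and library. Reads were mapped with Bowtie2 2.2.5 to mm10 and R 3.4.0 was used, per the submitters' processing notes; the counting and normalisation steps are not given in the sources used here. All values (100%) were whole multiples, within a tolerance of 0.01, of what 1 read is worth, which returned the reads per library. An amplified read without a molecular identifier is not an independent molecule, so intervals and floors cover counting error only. The floor of 3 reads over a group equals a value of 0.508 at E18.5 and 0.509 at P28.

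The main test was a two-sided test on log2(value + 1) by limma 3.58.1 in R 4.3.3, its prior variance following the mean, with 1 mean per stage over all 11 fibroblast libraries and 5 residual degrees of freedom. Genes entered when at least 2 libraries reached a value of 3, and p-values were adjusted by the Benjamini-Hochberg method over all 11954 genes tested. On the recovered whole reads, edgeR 4.0.16 (quasi-likelihood, TMM) and DESeq2 1.42.0 were alternatives only. Other alternatives were TMM or equal-sum scaling, pseudocounts of 0.5 and 5, no filter and a filter of 10, only the 4 libraries, a fit without P56, a replicate block, and each library left out. Only the main limma fit was tested on simulated data, drawn with a fixed setting for the spread between replicates.

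The fibroblast groups and the 54 gene lists were chosen with earlier results of these data known. Of 1397 listed names, 1322 matched by symbol and 8 by a RefSeq synonym, and 67 were not found. Named genes were the 12 largest rises and 12 largest falls among called genes whose higher group averaged 50 or more, predicted genes left out. To these came the 10 called genes with the highest mean, up to 5 called members of each list in each direction by smallest p, up to 2 members with a mean of at least 50 that did not pass, 5 sort genes and Xist, the 1 of 5 sex-linked genes found in the tables. Gene coordinates and coding lengths are from GENCODE vM21 (mm10) and promoters from RefSeq (GRCm38.p6). Lists carry no test. Some genes that this rule names are not reported here. The epithelial libraries were not used here.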

Additional observations from a re-analysis of the deposited data

How the results depend on the processing

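The number of called genes, 4020 in the main analysis, lay between 2939 and 4070 over the 15 alternatives, within 1.5 times of it in each. Leaving out 1 library gave 2939 to 3393 genes, with 1653 to 2035 higher and 1275 to 1376 lower. There the lone library of an age is assumed to vary like the other groups. edgeR called 3887 and DESeq2 3307 genes, the 4 libraries alone 3378, no filter 3395 of 21170 and a filter of 10 3394 of 7900. With the replicate number as a block 4028 genes were called. The numbers do not pair the libraries, since same-numbered E18.5 and P28 libraries had deviations correlated at -0.002. Of the 346 named genes called, 75 lost the call when some library was left out and 77 under some alternative, and none of the 411 tested changed direction while called.

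List counts also moved by over 1.5 times with the filter. Without a filter the falls became 4 in place of 7 among associated collagens, 2 in place of 4 among matricellular genes, 5 in place of 10 among transcription factors, 1 in place of 5 among S phase genes, 3 in place of 5 in the TGF-beta list and 1 in place of 4 in the type 2 cell list. The rises then became 3 in place of 5 in the Notch list, 5 in place of 3 in class II, 4 in place of 9 in the respiratory chain and 10 in place of 16 among chaperones. With a filter of 10 the mitosis falls were 2, the TGF-beta falls 3 and the mesothelial rises 3 in place of 6. In the 4 libraries alone the matricellular falls were 2, as with DESeq2, and the respiratory chain rises 5. The cause was not tested. With 1 read worth 0.281 to 0.427, genes at single-digit values rest on few reads, and a change there may not be detectable at this depth.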

Other observations

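Genes of the circadian clock were higher in P28 fibroblasts. Of 19 circadian clock genes listed, 18 in the tables and 17 tested, 11 rose and 0 fell, median 1.77, beside 18.7% higher and 14.9% lower over all genes tested. Rora, an activator of the clock factor Bmal1, went from 73.0 and 54.6 to 772 and 747 (log2 difference 3.57, SE 0.20, adjusted p = 2e-10). The repressors of the same promoter also rose, Nr1d1 from 2.53 and 2.56 to 73.2 and 72.6 and Nr1d2 from 10.96 and 11.5 to 145 and 120.4. Bhlhe40, a repressor in a second loop of the clock, went from 15.2 and 15.4 to 149 and 142. Per1 went from 264 and 264 to 271 and 196 and did not pass (log2 difference -0.20, SE 0.24, adjusted p = 0.564), and neither did Clock (log2 difference -0.43, SE 0.23, adjusted p = 0.175). The hour of collection is not in the labels, and its part in these values was not tested.

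Genes known to respond to glucocorticoids also rose more often than they fell. Of 18 glucocorticoid-responsive genes listed, 17 in the tables and 17 tested, 10 rose and 1 fell, median 1.56. These are 58.8% and 5.9%, beside 18.7% and 14.9% over all genes tested. The 1 that fell was Ddit4 (log2 difference -1.37, adjusted p = 0.0153), by -0.65 without P28 replicate 1 and -2.08 without P28 replicate 2. Fkbp5 and Cebpb, also of that list, did not pass. Zbtb16, a zinc finger factor, went from 301 and 251 to 1148 and 1054 and the kinase Sgk1 from 5.34 and 4.69 to 66.4 and 53.4. Klf9, a factor shared with the clock, went from 13.5 and 11.5 to 71.8 and 61.8 (log2 difference 2.33, SE 0.25, adjusted p = 7.47e-07).

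Among 20 integrin subunit genes listed, 20 in the tables and 14 tested, 6 rose and 1 fell, median 0.55. Itga8, the receptor subunit for the nephronectin described above, went from 503 and 491 to 1237 and 1065 (log2 difference 1.21, SE 0.19, adjusted p = 5.36e-05), and Itga9 from 2.81 and 6.4 to 53.7 and 51.4. The collagen receptor subunit Itga1 was the 1 that fell, from 99.2 and 78.9 to 14.8 and 11.96. In the axon guidance families, 9 rose and 6 fell of 33 tested, 27.3% and 18.2%, not far from 18.7% and 14.9% over all genes. The secreted ligand Slit2 fell from 389 and 482 to 170.4 and 139.6 (log2 difference -1.48, SE 0.19, adjusted p = 5.47e-06) while its relative Slit3 rose from 152 and 174 to 359.7 and 337 (log2 difference 1.10, SE 0.22, adjusted p = 0.000806).

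Metabolic lists changed to different extents. Among sterol and fatty acid synthesis genes, 3 rose and 6 fell of 32 tested, 28.1% called beside 33.6% over all genes. Scd2, a desaturase, went from 1515 and 1655 to 559 and 663 and Sqle, the squalene epoxidase, from 26.1 and 32.8 to 6.2 and 12.4. Of 57 respiratory chain genes tested, 9 rose and 6 fell, 26.3% called. The rises numbered 4 without E18.5 replicate 2, 4 without P28 replicate 1 and 5 without P28 replicate 2. Among 26 glycolysis and hypoxia genes tested, 9 rose and 4 fell, 50% called. The falls numbered 2 without E18.5 replicate 2 and 1 without P28 replicate 1. Hk2, a hexokinase, rose from 50.8 and 30.3 to 280.2 and 228, and Egln3, an oxygen-sensing hydroxylase, fell from 23.6 and 16.6 to 2.07 and 2.39.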
